A study of Mus musculus with 7 samples.

Results

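The Ikaros family comprises 5 genes of the mouse genome, Ikzf1 (Ikaros), Ikzf2 (Helios), Ikzf3 (Aiolos), Ikzf4 (Eos) and Ikzf5 (Pegasus), and their loci were examined in the open chromatin of HPC7 cells. A locus was defined as the gene body plus 50 kb on either side in GRCm38/mm10 with GENCODE M21 gene models, and every open chromatin region (OCR) of the 7 deposited peak lists that overlapped it was taken. The members are 5 of 21924 protein-coding genes, and their loci held 137 of the 144931 OCRs that remained after overlapping peaks of the 7 libraries were merged. HPC7 cells are a line of mouse hematopoietic progenitors, which the study kept in medium with stem cell factor. The 7 libraries (HPC7-1, HPC7-2 and HPC7-4 to HPC7-8) form a single group, to which the labels give 1 condition, and the study prepared each from its own culture batch. In bulk ATAC-seq, the Tn5 transposase cuts accessible DNA, and peaks mark the places where the cuts pile up. All p-values below therefore measure only the spread between these 7 cultures of a single cell line.

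Ikaros family proteins are zinc finger transcription factors. Fingers near the N terminus bind DNA and a pair near the C terminus lets the members join each other, and Ikaros, Helios and Aiolos recruit the NuRD chromatin remodelling complex and other corepressors. Ikaros is needed for the lymphoid lineages and acts already in multipotent progenitors, Helios is expressed in early hematopoietic cells and regulatory T cells, Aiolos rises as B cells mature, Eos acts in regulatory T cells, and Pegasus is the most divergent member and is expressed widely.

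Ikzf1 lies on the plus strand at chr11:11685003-11772926 (ENSMUSG00000018654), and the other members lie on the minus strand. Ikzf2 is at chr1:69531214-69687245 (ENSMUSG00000025997), Ikzf3 at chr11:98464902-98546031 (ENSMUSG00000018168), Ikzf4 at chr10:128630843-128645991 (ENSMUSG00000002578) and Ikzf5 at chr7:131388652-131410521 (ENSMUSG00000040167). Positions below are distances of the peak summit from the start of the gene, positive downstream. The sequences that follow are the 201 bp around the summits of 6 of the named OCRs that lie apart from transcript starts, read from GRCm38 on the strand of the gene. Capitals mark matches, on either strand, to 5 short motifs of hematopoietic factors. The core bound by Ikaros was searched as TGGGAA, the site of GATA factors as AGATAA, that of RUNX factors as TGTGGT and that of Pu1 as GAGGAAGT. The E-box of Tal1 and related factors was searched as CAGATG and, in its other common form, as CAGCTG. A match is only a run of letters and does not show that a factor was bound. The first sequence is the most intense OCR of the Ikzf1 locus that is not at a transcript start, and the second is its most intense intronic OCR. The 3 sequences of Ikzf2 are a downstream OCR and a pair of intronic ones, and that of Ikzf4 is its most intense OCR that was in every library and apart from transcript starts.
Ikzf1 at -27.7 kb, chr11:11657201-11657401, plus strand: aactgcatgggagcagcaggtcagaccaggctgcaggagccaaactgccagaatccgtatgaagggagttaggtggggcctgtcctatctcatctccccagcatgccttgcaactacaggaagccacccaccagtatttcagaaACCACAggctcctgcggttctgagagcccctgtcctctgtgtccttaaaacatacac
Ikzf1 at 45.3 kb, intronic, chr11:11730184-11730384, plus strand: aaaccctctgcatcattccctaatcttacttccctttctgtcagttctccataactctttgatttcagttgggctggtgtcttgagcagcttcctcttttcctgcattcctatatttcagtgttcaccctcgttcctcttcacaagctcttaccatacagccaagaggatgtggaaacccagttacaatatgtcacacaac
Ikzf2 at 179.5 kb, chr1:69507644-69507844, minus strand: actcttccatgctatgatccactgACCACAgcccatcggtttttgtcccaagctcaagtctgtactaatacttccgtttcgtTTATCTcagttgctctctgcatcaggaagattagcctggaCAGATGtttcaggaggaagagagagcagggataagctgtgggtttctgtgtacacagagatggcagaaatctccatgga
Ikzf2 at 80.2 kb, intronic, chr1:69606961-69607161, minus strand: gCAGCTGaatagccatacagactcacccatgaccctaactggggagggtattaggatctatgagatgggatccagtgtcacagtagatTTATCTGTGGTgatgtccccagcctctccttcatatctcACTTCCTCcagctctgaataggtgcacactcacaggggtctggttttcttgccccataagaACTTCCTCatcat
Ikzf2 at 49.2 kb, intronic, chr1:69637987-69638187, minus strand: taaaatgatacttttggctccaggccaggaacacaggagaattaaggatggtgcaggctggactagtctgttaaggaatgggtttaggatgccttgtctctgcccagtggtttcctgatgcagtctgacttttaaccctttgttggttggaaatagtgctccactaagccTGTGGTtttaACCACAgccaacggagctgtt
Ikzf4 at -18.0 kb, chr10:128663899-128664099, minus strand: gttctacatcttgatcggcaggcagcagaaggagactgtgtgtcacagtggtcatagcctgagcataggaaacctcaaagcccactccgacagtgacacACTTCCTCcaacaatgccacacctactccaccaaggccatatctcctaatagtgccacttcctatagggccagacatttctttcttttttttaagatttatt

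Promoter windows of RefSeq (GRCm38.p6; 250 bases before to 50 after a gene's start) were found for Ikzf1 and Ikzf5. The stretch between the starts of Ikzf5 and its divergent neighbour Acadsb is shown because a single OCR covers both starts, and the stretch before an internal start of Ikzf1 is shown because an intronic OCR lies on it. Neither stretch held any of the 5 motifs. The other RefSeq window of Ikzf1, chr11:11685675-11685974, lies almost wholly on exon sequence and is not printed, and its GC content was 81.3% with 52 CpG.
Ikzf5 and Acadsb, chr7:131410522-131410600, minus strand: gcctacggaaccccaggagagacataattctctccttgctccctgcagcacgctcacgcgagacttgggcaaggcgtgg
Ikzf1 internal start, chr11:11689927-11690120, plus strand: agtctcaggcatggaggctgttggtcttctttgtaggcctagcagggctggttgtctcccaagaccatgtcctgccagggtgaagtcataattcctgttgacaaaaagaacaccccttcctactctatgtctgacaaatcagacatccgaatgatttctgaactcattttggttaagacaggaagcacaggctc

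The lists held between 84593 (HPC7-6) and 132852 (HPC7-1) OCRs, and no peak lay beyond the end of its mm10 chromosome. Intensity is the fold enrichment of a peak summit over the background as deposited, and 100% of the values below 50-fold in each library were whole multiples of a step to within 0.05 of the step, so that all peaks of a library share 1 background, of 4.44 (HPC7-2) to 20.4 reads (HPC7-1). Since the sources used here name no normalization between libraries, intensity was also expressed as the percentile of a peak among all peaks of its own library. The lists hold only peaks above the calling threshold, so the lack of a peak means that none was detectable at the depth of that library. In bulk cells, the share of cells with an open region and the openness per cell cannot be told apart. The label of the cells was checked at promoters of marker genes. All 12 progenitor markers, among them Lyl1 (percentile 99.9) and Ptprc (83.7), had a promoter OCR above the 75th percentile in every library, against 2 of 8 T cell, 0 of 8 B cell and 0 of 8 markers of cells other than blood. Of the last list, Gfap (76.7) and Myod1 (61.4) nonetheless had a promoter OCR in all 7 libraries.

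OCRs were most numerous at Ikzf1 and fewest at Ikzf5. The Ikzf1 locus held 28 to 49 OCRs per library, with a median of 37 and a mean of 38.9 ± 7.73 (SD, n = 7). This was 20.7 ± 4.12 per 100 kb, and Ikzf1 lay at the 92.3rd percentile of protein-coding genes, whose median was 7.54 per 100 kb. Ikzf2, the longest member, held 23 to 35 (median 27, mean 28.4 ± 4.89), or 11.1 ± 1.91 per 100 kb at the 66.0th percentile. Ikzf4 held 12 to 20 (median 15, mean 15.4 ± 2.76), and its short locus had 13.4 ± 2.40 per 100 kb, which was more than Ikzf2. Ikzf3 held 8 to 18 (median 12, mean 12.3 ± 3.59) and Ikzf5 4 to 9 (median 6, mean 6.57 ± 1.81), and both were below the median gene per 100 kb, with 6.78 ± 1.98 and 5.39 ± 1.49. The lowest count of each member was in HPC7-6, alone or shared with another library, or in HPC7-2 for Ikzf4. The highest was in HPC7-1 or HPC7-8, which are the libraries with the longest lists. The part of list length in these counts was not tested beyond taking equal numbers of peaks from each library, which is given in the closing section.

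Of the 137 merged OCRs, 64 (46.7%) had a peak in all 7 libraries, beside 46.2% of all merged OCRs of the genome. Another 54 (39.4%) were in 2 to 6 libraries and 19 (13.9%) in 1, beside 35.9% and 17.9% in the genome. Of the 19, 14 (73.7%) were found only in HPC7-1, the library with the longest list and the highest background count, beside 64.9% of the single-library OCRs of the genome. The share with support from all libraries was thus close to that of the genome. By locus, 23 of 52 merged OCRs of Ikzf1, 18 of 38 of Ikzf2, 7 of 18 of Ikzf3, 12 of 20 of Ikzf4 and 4 of 9 of Ikzf5 were in every library. The summits of the 64 shared OCRs lay within a median of 75 bp of each other over the libraries, beside 72 bp in the genome.

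**Figure D1:**
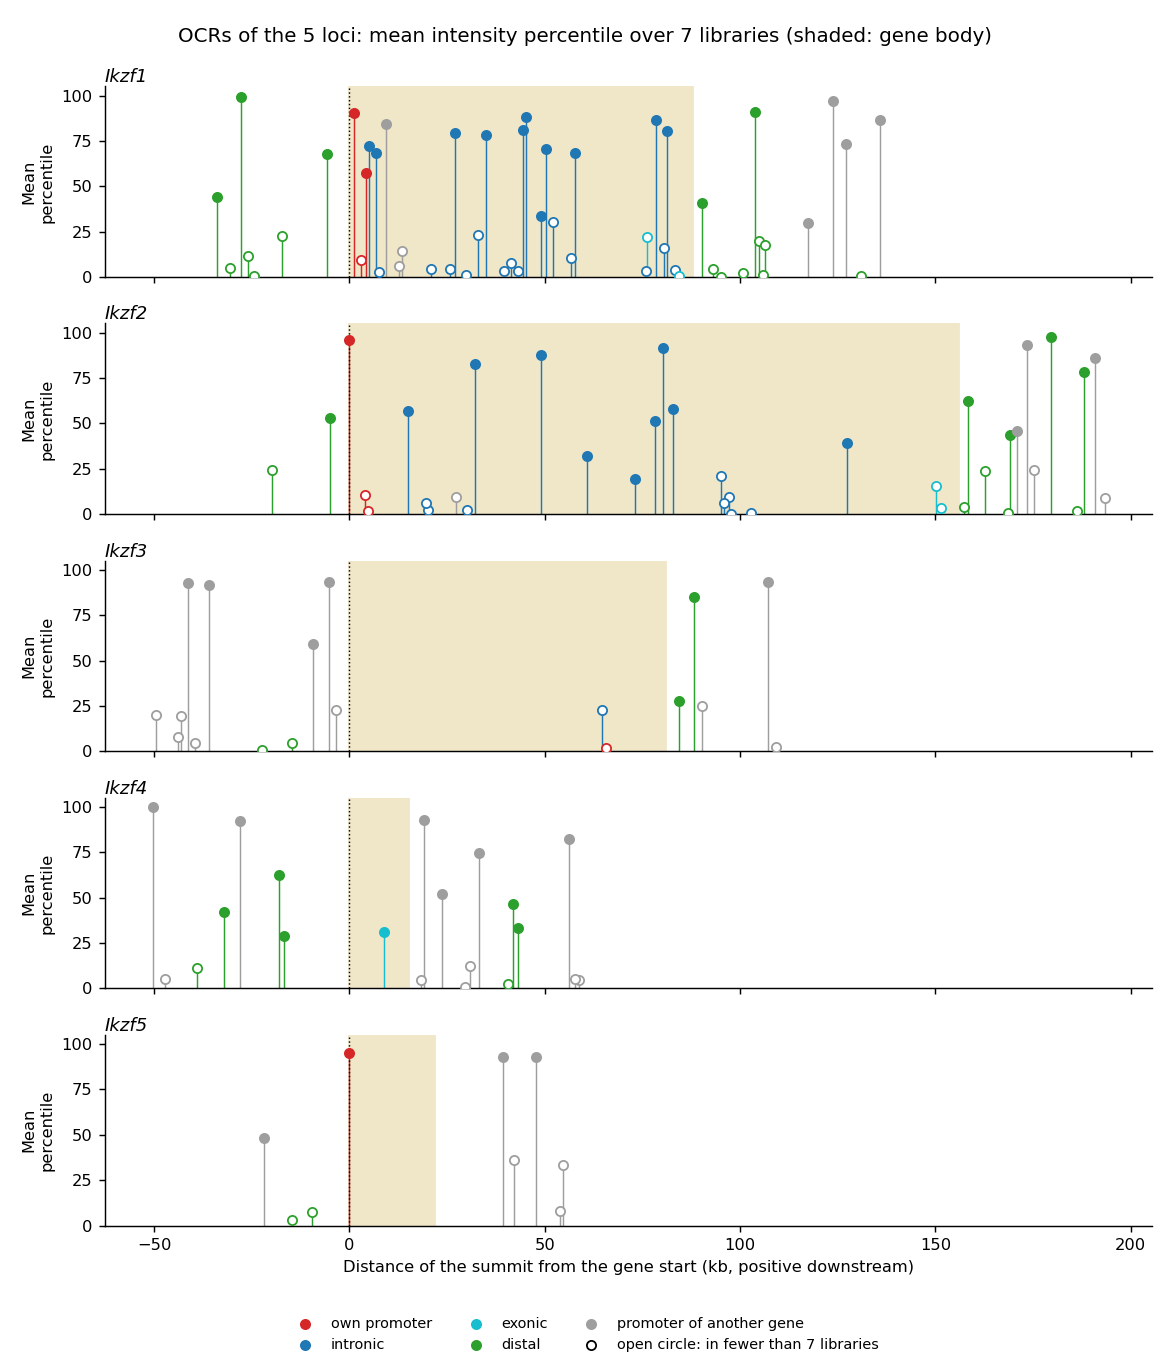
OCRs of the 5 loci by the distance of their summit from the gene start (kb, positive downstream) and by their mean intensity percentile over 7 libraries; colours give the position class, filled circles were found in all 7 libraries and the shaded area is the gene body. The gene body of Ikzf1 holds 32 merged OCRs and that of Ikzf2 holds 23, while the body of Ikzf3 holds 2 and those of Ikzf4 and Ikzf5 hold 1 each.

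The members differed in where their OCRs lay. A merged OCR was called a promoter OCR when it came within 3 kb of any transcript start of the member, and otherwise it was assigned to the promoter of another gene, to an exon or intron of the member, or to distal sequence. Ikzf1 had 24 intronic and 16 distal merged OCRs, of which 11 and 5 were in all 7 libraries, and Ikzf2 had 17 and 10, of which 9 and 5 were in all 7. Ikzf3 had 1 intronic OCR (chr11:98481274-98481613, in 5 libraries) and 4 distal ones. Ikzf4 and Ikzf5 had no intronic OCR, and their distal OCRs numbered 7 and 2. Exonic OCRs numbered 2 at Ikzf1 and 2 at Ikzf2, none of them in every library. Ikzf4 had 1 exonic OCR (chr10:128636585-128637415), which was in all 7 libraries at a fold of 4.47 ± 0.817. At Ikzf3, Ikzf4 and Ikzf5, OCRs at promoters of other genes were the largest class, with 12 of 18, 12 of 20 and 6 of 9.

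**Figure D2:**
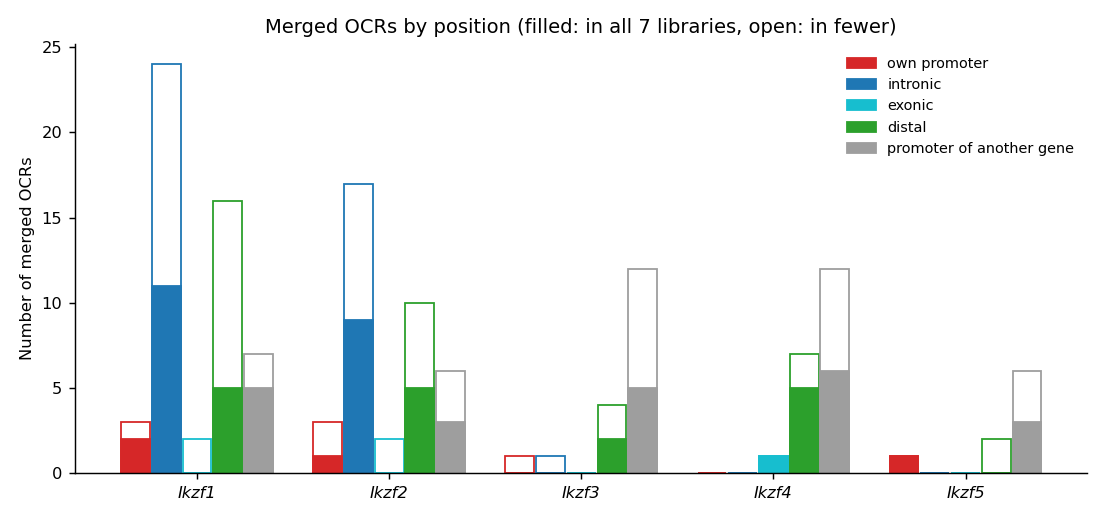
Number of merged OCRs (vertical axis) of each member by position class; filled bars are OCRs with a peak in all 7 libraries and open bars add those in fewer. Intronic OCRs reach 24 at Ikzf1 and 17 at Ikzf2 and are 1, 0 and 0 at Ikzf3, Ikzf4 and Ikzf5.

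Gene bodies showed the same contrast on the scale of their own length. The body of Ikzf1 held 32 merged OCRs, which covered 27.9% of it, and its 3.64 OCRs per 10 kb put it at the 95.1st percentile of 14149 genes over 10 kb. Ikzf2 held 23 (9.29% covered, 1.47 per 10 kb), beside 1.02 per 10 kb in the median gene. Ikzf3 is nearly as long as Ikzf1, but 2 OCRs covered 0.732% of its body. No peak was listed in any library over the 64418 bp at chr11:98481614-98546031, which is 79.4% of the Ikzf3 gene and includes its start. In Ikzf5, 94.0% of the body, 20559 bp, was free of OCRs. The longest stretch free of OCRs was 50.9% of the body in the median gene, and Ikzf3 and Ikzf5 lay at the 73.6th and 82.0th percentiles of genes.

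The promoters of Ikzf1, Ikzf2 and Ikzf5 were open in every library, that of Ikzf3 in 1 and that of Ikzf4 in none. The Ikzf3 call was lost with 1 kb promoters, with starts of protein-coding transcripts alone and with lists of equal length, so that no promoter OCR in any library was then left at Ikzf3 either. A promoter OCR in all 7 libraries was thus found for 3 of 5 members, beside 60.8% of protein-coding genes, and none in any library for 1 of 5, beside 32.1%. The promoters of 3 of 5 members lay above the 75th percentile in every library, beside 50.3% of genes. With 5 members, these shares cannot be set apart from the background.

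The fold enrichment of the Ikzf2 promoter OCR (chr1:69683890-69689678) was 80.1 to 119 with a median of 99.7 and a mean of 102 ± 13.0 (SD, n = 7). It rested on 511 to 2324 reads at the summit, and its percentile was 95.7 ± 1.23. HPC7-6 was lowest and HPC7-8 highest in fold, and HPC7-5 stood below the other libraries in percentile, at 93.2. This OCR was broad. Its strongest peak measured 3654 ± 1088 bp, at the 99.2nd percentile of peak widths, and the libraries divided the merged stretch of 5789 bp into 1 to 4 peaks.

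The Ikzf5 promoter OCR (chr7:131409211-131411707), which also covers the start of Acadsb, a gene of fatty acid and branched-chain amino acid breakdown, 80 bp away, had a fold of 66.3 to 122 with a median of 88.8 and a mean of 91.9 ± 21.1. The percentile was 94.7 ± 1.10, with 423 to 2418 reads at the summit. HPC7-6 and HPC7-7 were the lowest in fold and HPC7-5 the highest, yet in percentile all 7 libraries lay between 93.1 and 96.3. A GENCODE model of Fgfr2, a growth factor receptor, also spans it. Cuts at this OCR cannot be told apart between Ikzf5 and Acadsb.

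The Ikzf1 promoter OCR (chr11:11684407-11687256) had a fold of 40.7 to 71.0 with a median of 60.6 and a mean of 59.1 ± 10.3, and 259 to 1517 reads at the summit. Its percentile was 90.6 ± 1.76. HPC7-6 was lowest and HPC7-1 highest on both scales. The summit was 1.08 kb downstream of the gene start and stayed within 9 bp over the 7 libraries, and the OCR also covers the start of Gm11999, a noncoding transcript on the other strand. A further promoter OCR at chr11:11688843-11689598 was in all 7 libraries at a fold of 8.32 ± 1.72.

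At Ikzf3, the promoter OCR was a peak of HPC7-1 alone (chr11:98480157-98480410), with a fold of 2.53, 53 reads at the summit and a percentile of 13.5. It is 65.8 kb inside the gene, within 3 kb but not within 1 kb of an internal transcript start, and the other 6 libraries listed no peak there or at the annotated gene start. At Ikzf4 no library listed a promoter peak. With the transcript starts of RefSeq, an alternative chosen after seeing the data, Ikzf3 had a promoter OCR in 0 libraries and Ikzf4 in 0, although RefSeq places 3 starts of Ikzf4 as far as -23.7 kb from its GENCODE start.

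**Figure D3:**
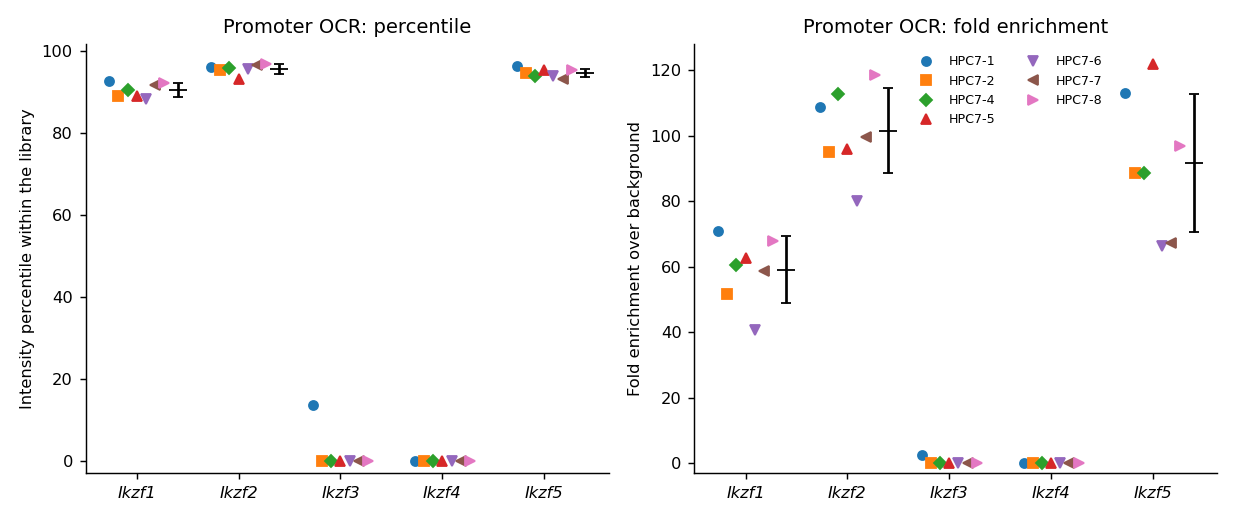
Promoter OCR of each member in 7 libraries, as intensity percentile within the library (left) and as fold enrichment over background (right); each point is a library, libraries without a listed peak are drawn at 0, and black bars are mean ± SD where all 7 libraries had a peak. Ikzf2 (mean fold 102) and Ikzf5 (91.9) lie above Ikzf1 (59.1), while Ikzf3 is above 0 in HPC7-1 alone and Ikzf4 in none.

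In order of promoter percentile the members ranked Ikzf2, Ikzf5, Ikzf1, Ikzf3 and Ikzf4. The 10 pairs were each tested by exact permutation of the signs of the 7 within-library differences (two-sided, Benjamini-Hochberg over 10 pairs), for which 7 libraries allow no p below 0.0156. A missing peak counts as percentile 0, which fixes the outcome for pairs with Ikzf3 or Ikzf4, so only the 3 pairs among the open promoters are read as tests. Ikzf1 was the lowest of the open promoters, with a difference of -5.11 ± 1.34 percentile points (SD, n = 7) for Ikzf1 minus Ikzf2 and of -4.10 ± 1.72 for Ikzf1 minus Ikzf5, each negative in 7 of 7 libraries (exact permutation p = 0.0156, adjusted p = 0.0195 over 10 pairs, and 0.0234 over the 3 pairs, an adjustment chosen after seeing the data). The neighbours Ikzf2 and Ikzf5 did not differ beyond their spread, with a difference of 1.01 ± 1.83 points that ranged from -2.15 to 3.60 and was positive in 5 of 7 libraries (exact permutation p = 0.219, adjusted p = 0.243). It was 0.576 points without HPC7-7 and 1.53 points without HPC7-5. Ikzf3 and Ikzf4, also neighbours, differed by 1.93 ± 5.09 points on account of HPC7-1 alone.

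Among genes, the open promoters of the family were not extreme. Ikzf2 lay at the 79.3rd percentile of protein-coding genes by promoter percentile, Ikzf5 at the 75.3rd and Ikzf1 at the 62.4th. The genes with the most similar promoter percentiles over the 7 libraries, by Euclidean distance among 13320 genes, were Atp13a3 (0.588 percentile points) and Wdr60 (0.947) for Ikzf1. They were Atp6v1c1 (1.05) and Dennd4c (1.07) for Ikzf2, and Acadsb, which has the same OCR, and Apoa5 (0.884) for Ikzf5. Ikzf3 and Ikzf4 had no such pattern to match.

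Away from transcript starts, the most intense OCR of the family lay at the Ikzf1 locus, at -27.7 kb (chr11:11656145-11658368), inside the body of the noncoding gene Gm11999. Its fold was 131 to 223 with a median of 189 and a mean of 185 ± 31.7, and its percentile was 99.3 ± 0.184. All 7 libraries had it above every value of the Ikzf1 promoter, its width was 2114 ± 94.0 bp and its summit stayed within 16 bp. The Ikzf1 locus lay at the 99.5th percentile of protein-coding genes in the strength of its strongest OCR apart from starts. That OCR was the highest of 20 to 39 such peaks per library, and by OCRs in its window Ikzf1 lay at the 98.05th percentile of genes. The part of this number in the rank was not tested. The window printed above held 1 RUNX match.

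The next OCRs of Ikzf1 were of the order of its promoter or lower. The OCR at 103.8 kb (chr11:11787462-11789371), within Fignl1, a gene of DNA repair, had a fold of 44.0 to 73.3 with a median of 62.5 and a mean of 61.8 ± 10.1. The intronic OCR at 45.3 kb (chr11:11729853-11730965) had 29.3 to 62.0 with a median of 46.4 and a mean of 47.9 ± 12.9. Both ranges overlap that of the promoter, but within each library the intronic OCR was below the promoter. The OCR at 103.8 kb was above the promoter in every library except HPC7-8 (56.4 beside 68.0). Over the 11 intronic OCRs found in every library, mean folds ran from 4.94 to 47.9 with a median of 21.5. The mean percentile was at or above 75 in 6 of 11, beside 26.3% of the 40438 OCRs of the genome found in every library and over 3 kb from any transcript start, a comparison that was not tested. They spread over the whole gene, among them OCRs at 5.13 kb (mean fold 15.1), 27.0 kb (22.2), 35.0 kb (21.5), 44.4 kb (24.2), 78.4 kb (40.0) and 81.3 kb (23.6). That at 5.13 kb (chr11:11689775-11690858) holds 3 starts of RefSeq transcripts over 3 kb from any start of Ikzf1 in GENCODE M21, the farthest at 5.17 kb.

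At Ikzf2 the most intense OCR apart from starts lay at 179.5 kb (chr1:69506929-69508947), beyond the 3' end of the gene. Its fold was 99.7 to 145 with a median of 126 and a mean of 126 ± 17.6, and its percentile was 97.3 ± 0.508. The range overlapped that of the Ikzf2 promoter in fold, but within each library the downstream OCR was the higher. The intronic OCR at 80.2 kb (chr1:69606451-69607728) had a fold of 41.1 to 82.3 with a median of 72.3 and a mean of 67.3 ± 14.0, and that at 49.2 kb (chr1:69637761-69639184) had 35.4 to 51.0 with a median of 44.7 and a mean of 43.6 ± 6.20. The window at 80.2 kb, printed above, held the most motif matches of the named OCRs: a GATA and a RUNX match that share 1 base, 2 Pu1 matches and 1 E-box. The window at 179.5 kb held 1 GATA, 1 RUNX and 1 E-box match and that at 49.2 kb held 2 RUNX matches on opposite strands. The 9 intronic OCRs of Ikzf2 in every library had a median mean fold of 8.12, and the mean percentile was at or above 75 in 3 of 9, beside the same 26.3% of the genome.

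Ikzf3, Ikzf4 and Ikzf5 had weaker OCRs apart from starts. At Ikzf3, the OCR at 88.3 kb, between the 3' ends of Ikzf3 and of the neighbouring adaptor gene Grb7, had a fold of 26.3 to 46.6 with a median of 31.9 and a mean of 33.5 ± 7.25. The OCR at 84.4 kb had a fold of 4.29 ± 0.790. At Ikzf4, the OCR at -18.0 kb (chr10:128663513-128664289) in the noncoding gene Gm49782 had 6.06 to 14.7 with a median of 11.8 and a mean of 10.3 ± 3.29, and those at 41.8 and -32.2 kb had 6.05 ± 0.707 and 5.64 ± 1.06. Ikzf5 had no such OCR in every library, and that at -9.47 kb (chr7:131419818-131420095) was listed in HPC7-1 (3.04) and HPC7-8 (4.08) only.

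**Figure D4:**
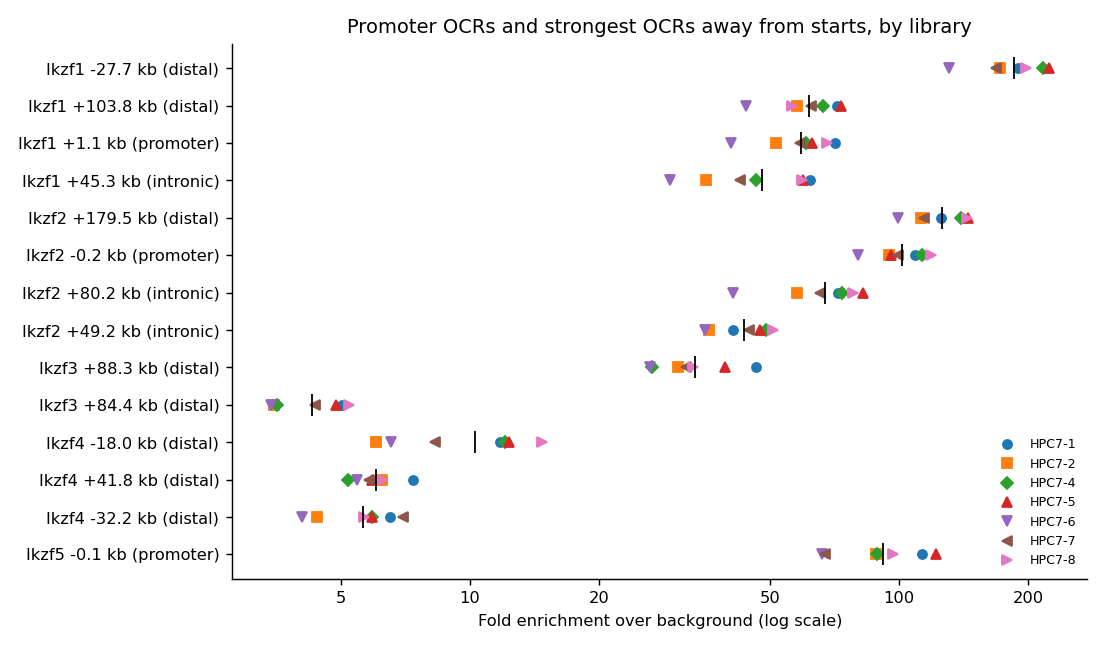
Fold enrichment over background (horizontal axis, log scale) of the open promoters and of the most intense OCRs apart from transcript starts that were in all 7 libraries; each point is a library and black bars are means. The OCR of Ikzf1 at -27.7 kb (mean 185) and that of Ikzf2 at 179.5 kb (126) lie highest, and those of Ikzf4 lie lowest with the OCR of Ikzf3 at 84.4 kb (4.29).

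The promoter was then set against the strongest peak of the same locus at no transcript start of any gene. The other peak was the higher at Ikzf1 and Ikzf2 in 7 of 7 libraries, with promoter minus other at -8.69 ± 1.62 and -1.63 ± 0.881 percentile points. The exact sign-flip permutation test gave p = 0.0156 and adjusted p = 0.0156 for both, but these are not read as tests. The other peak was the highest of 20 to 39 peaks per library at Ikzf1 and of 14 to 26 at Ikzf2. It was picked by the intensity then compared, and the highest of many peaks tends to exceed a single promoter. The other loci compare listed peaks with peaks that are missing in most or all libraries, so their differences of -88.9 ± 5.66 at Ikzf3, -63.2 ± 9.12 at Ikzf4 and 87.3 ± 11.8 at Ikzf5 are given as descriptions. At Ikzf5 the difference was 58.8 with 1 kb promoters and 46.1 with starts of protein-coding transcripts alone, where the mean percentile of the strongest other peak was 35.9 and 48.6 in place of 7.34. Of the 3 members with a promoter OCR in all 7 libraries, 2 had a stronger OCR elsewhere in every library, beside 18.1% of the genes with such a promoter. These genes were not matched for the number of peaks that compete with the promoter. By OCRs in the window, Ikzf1 and Ikzf2 lay at the 98.05th and 93.45th percentiles of genes, and 3 members are too few to be set apart from the background. In 6 libraries the strongest other peak of Ikzf3 merges with an OCR at the promoter of its neighbour Ormdl3 (chr11:98580088-98584468), and when such peaks were left out, an alternative chosen after seeing the data, the difference was -82.9 ± 3.18.

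**Figure D5:**
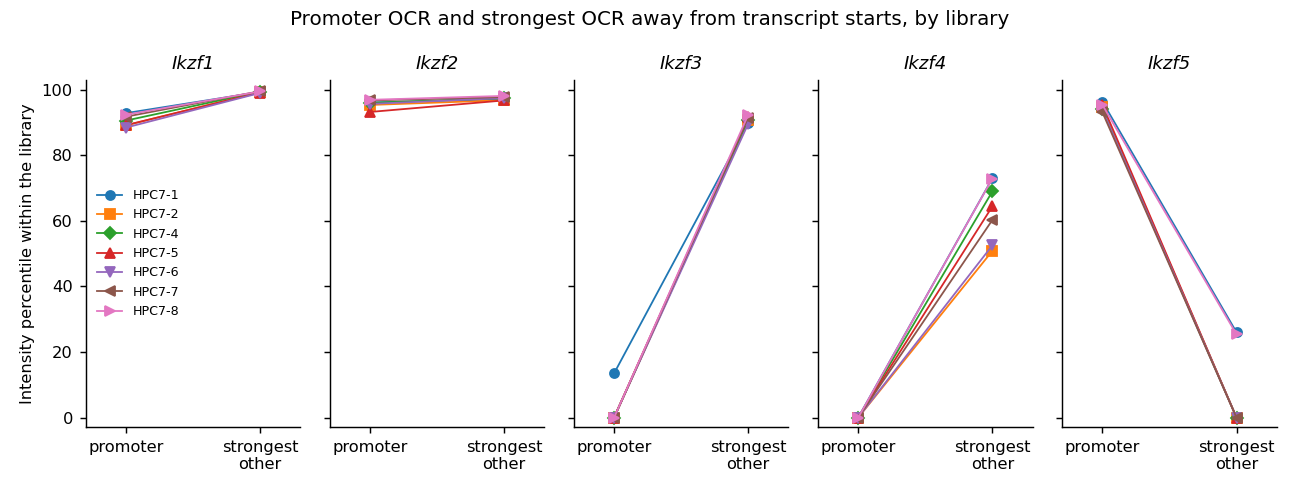
Intensity percentile within the library (vertical axis) of the promoter OCR and of the strongest OCR at no transcript start, for each member; each line is a library and a missing peak is drawn at 0. The lines of Ikzf1 and Ikzf2 rise in 7 of 7 libraries, those of Ikzf3 and Ikzf4 start at or near 0, and at Ikzf5 5 of 7 libraries listed no other peak.

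Motif matches at the 64 shared OCRs were counted in the 201 bp around the summit. GATA matches were in 14 of 64 (21.9%, exact 95% binomial interval 12.5 to 34.0%), beside 14.8% of 66979 shared OCRs of the genome and 11.2% of 32851 RefSeq promoter windows, which are longer than 201 bp. By locus, they were in 6 of 23 at Ikzf1, 6 of 18 at Ikzf2, 1 of 7 at Ikzf3, 1 of 12 at Ikzf4 and 0 of 4 at Ikzf5. Over all 137 merged OCRs, whatever their support, GATA matches were in 32 (23.4%) beside 13.7% of all merged OCRs of the genome. RUNX matches were in 17 (26.6%, 16.3 to 39.1%) beside 27.0% of shared OCRs and 16.8% of promoters. These were 8 of 23 at Ikzf1, 7 of 18 at Ikzf2, 0 of 7 at Ikzf3, 1 of 12 at Ikzf4 and 1 of 4 at Ikzf5. The Ikaros core was in 9 (14.1%, 6.64 to 25.0%) beside 16.2% and 25.6%. Pu1 matches were in 6 (9.38%, 3.52 to 19.3%) beside 7.16% and 3.20%, and E-boxes in 18 (28.1%, 17.6 to 40.8%) beside 30.0% and 30.6%. For the 64 shared OCRs, each interval includes the share of the genome's shared OCRs. None of the printed windows held the Ikaros core. The intervals cover counting error only, and OCRs of a locus are not independent.

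The promoters of genes whose products work with the family, and of its lymphoid targets, were then described. All 18 of the NuRD and corepressor genes had a promoter OCR above the 75th percentile in every library, beside 50.3% of all protein-coding genes, with a median percentile of 97.3 beside 80.7 over all protein-coding genes. They ranged from Mta1 (82.3) and Chd4 (89.6), a subunit and the remodelling ATPase of NuRD, to Mbd3 (99.9) and Gatad2a (99.97), both subunits. All 5 genes of the cereblon ubiquitin ligase, which degrades Ikaros and Aiolos in human cells given lenalidomide, were likewise above it, from Crbn, the substrate receptor (90.0), to the scaffold Cul4a (99.8). Of 20 lymphoid target genes, 11 had a promoter OCR in all 7 libraries, 6 had none in any, beside 60.8% and 32.1% of all protein-coding genes, and the median was 59.1. Vpreb1 of the surrogate light chain (97.2), Bcl2, an inhibitor of apoptosis (95.4), and Dntt, the terminal transferase (95.0), were highest, while Cd79a, Cd8a, Cd4, Il2ra, Ebf1 and Pax5 had no promoter OCR.

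The peak names carry 1 of 2 prefixes, VD in HPC7-1, HPC7-2 and HPC7-4 and EtOH in the others, which the labels do not explain and which were not used as conditions. Promoter folds overlapped between the prefixes at Ikzf1 (51.8 to 71.0 and 40.7 to 68.0), Ikzf2 (95.0 to 113 and 80.1 to 119) and Ikzf5 (88.6 to 113 and 66.3 to 122). Within each prefix, Ikzf1 minus Ikzf2 and Ikzf1 minus Ikzf5 kept their direction. Ikzf2 minus Ikzf5 was 0.760 ± 1.11 points (SD, n = 3) in the VD and 1.19 ± 2.41 points (n = 4) in the EtOH libraries, and 1 library of each prefix had the opposite sign, HPC7-1 at -0.270 and HPC7-5 at -2.15.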

How the data were processed

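Open chromatin was measured by bulk ATAC-seq in 7 HPC7 libraries. Reads were trimmed by the authors (Cutadapt) and mapped to mm10 (BWA-mem), and each library had its own peak calls (MACS2). The submitters' processing notes also name BWA and MACS2, and versions and options are not given in the sources used here. Fold enrichment in the deposited lists is the ratio of summit reads to background after a read is added to each. They also give the deposited −log10 p-value and −log10 q-value and a score made from the latter. Reads at summits and the background were recovered from the step of the fold values, and from them the deposited −log10 p-values were recomputed to within 1.08e-05 in median. Depth therefore enters through this background.

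Peaks overlapping by at least 1 bp were merged. An OCR was a promoter OCR within 3 kb of a GENCODE M21 transcript start. The percentile is that of the fold among all peaks of the library, and 0 without a peak. Values within a library were compared by exact two-sided sign-flip permutation tests, Benjamini-Hochberg adjusted. Named were all members, each locus's most intense promoter OCR and its 3 most intense OCRs apart from starts, 2 nearest genes, neighbours, and the extremes of each gene list. The other intronic OCRs of Ikzf1 were named after their values were seen. Members, lists and tests were chosen with earlier results of these data known. Alternatives were −log10 q of at least 5, equal list lengths, other flanks, 1 kb promoters, protein-coding or RefSeq starts, log2 fold, ranking among promoter peaks, 50% reciprocal overlap, 101 bp motif windows, and each library left out. Interval and test functions were tested on simulated data. The software was bedtools 2.31.1 and Python 3.11.15 with pysam 0.24.0, pandas 2.3.3, numpy 2.4.6, matplotlib 3.10.9 and scipy 1.17.1. Library HPC7-3 was not analysed here. The summit sequences of some named OCRs are not reported here.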

Additional observations from a re-analysis of the deposited data

Results flagged for a closer look

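The Ikzf2 promoter percentile was 93.17 in HPC7-5, while the next lowest library had 95.31, a gap that, divided by the whole range, was above Dixon's 95% critical value. It was 1 of 29 measures examined over the 7 libraries, and chance gives about 1 in 20. The Ikzf3 promoter OCR was listed in HPC7-1 alone, with a fold of 2.527 and a percentile of 13.47. With 6 libraries at 0 such a peak passes the same limit by construction, and its fold and percentile are 1 finding. HPC7-1 has the longest list, and with 84593 peaks from each library the peak was no longer listed. HPC7-1 also has the highest background, whose part was not tested.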

How the results depend on the processing

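Of 350 values under alternatives, 325 were counted as unchanged. OCRs per library and promoter percentiles had to stay within the spread, and motif shares within the binomial interval. Merged OCRs in all 7 libraries were compared by ratio, with a wider allowance. With 50% reciprocal overlap, 23 became 17 at Ikzf1 and 12 became 9 at Ikzf4, and both counted as unchanged. So did 4 becoming 6 at Ikzf5 without HPC7-6. Differences had to keep their direction and side of the threshold or stay within the spread, as did all 136 between members and all 64 between promoter and other OCR. Those that set a listed peak against a missing one say nothing of stability. Those that set a promoter against the highest of many peaks favour the other peak by construction. The adjusted p of Ikzf2 against Ikzf5 ranged from 0.0694 (without HPC7-5) to 0.486 (without HPC7-7) in the exact permutation test. The other 25 moved. With 84593 peaks from each library, OCRs per library were 29.7 at Ikzf1 and 23.1 at Ikzf2, and promoter percentiles were 88.5 at Ikzf1 and 93.4 at Ikzf5. With flanks of 20 kb, they were 6.57 at Ikzf3, 8 at Ikzf4 and 2.57 at Ikzf5, with 4, 6 and 2 merged OCRs in all 7 libraries. With the gene body alone, OCRs per library were 23.1 at Ikzf1, 16 at Ikzf2, 0.857 at Ikzf3, 1.29 at Ikzf4 and 1 at Ikzf5, with 14, 10, 0, 1 and 1 merged OCRs in all 7. Shorter lists and smaller windows hold fewer peaks by construction. Ranked among promoter peaks alone, the promoter percentile was 79.3 for Ikzf1, 89.7 for Ikzf2 and 87.4 for Ikzf5. In 101 bp windows, RUNX matches were in 15.6% and E-boxes in 15.6% of the shared OCRs, beside 17.4% and 17.4% in the genome, and GATA matches were in 15.6% beside 8.60%, or in 14.6% of all 137 merged OCRs beside 7.71%. No paired analysis was possible because the libraries form a single group, so no replicate numbers pair samples across groups, and the tests above pair values within a library. With 7 libraries of 1 cell line, no exact p can fall below 0.0156, and OCRs of low intensity near the calling threshold are those that depth limits.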

Other observations

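Other promoters lay in the same windows. Next to Ikzf3, whose own start had no peak, the promoter OCRs of Zpbp2 (percentile 93.5 ± 1.34), Ormdl3 (92.9 ± 1.69) and Mien1 (93.0 ± 1.71) were in all 7 libraries, and the start of Zpbp2 is 5066 bp from that of Ikzf3. Grb7 had a promoter OCR in 6 libraries (25.1 ± 19.8), with its summit 90.3 kb from the Ikzf3 start. The gene start of Grb7 is 99.6 kb from the Ikzf3 start, so this OCR is near a later transcript start of Grb7 and not at its gene start. Next to Ikzf4, the promoters of Rps26 (92.6 ± 0.392), Suox (92.3 ± 1.31) and Erbb3 (82.3 ± 3.56) were open in all 7, while Gm26876, whose start is 107 bp from that of Ikzf4, had no peak in any. The OCR of Rab5b at the edge of the Ikzf4 window was the most intense in any of the 5 windows, with a mean fold of 253 ± 53.6 (percentile 99.8). At Ikzf1, the promoter of Fignl1 had a percentile of 96.9 ± 0.585 and that of the antisense gene Gm12000 84.6 ± 2.78. At Ikzf2, the noncoding genes Gm29114 (93.4 ± 1.14) and Gm29113 (85.8 ± 2.22) were open in all 7. Pstk (92.9 ± 1.81) and 2310057M21Rik (92.9 ± 1.07) were open beside Ikzf5.

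Base composition at the GENCODE gene starts did not order the members as their promoter OCRs did. Within 500 bp of the gene start, GC content and observed over expected CpG were 60.9% and 1.06 at Ikzf2, 64.1% and 0.787 at Ikzf5 and 57.3% and 0.912 at Ikzf3, all at or above 50% and 0.6. They were 59.4% and 0.465 at Ikzf1 and 59.6% and 0.444 at Ikzf4, below the second limit. Among 9725 genes at or above both limits, 86.3% had a promoter OCR in all 7 libraries, and among 12186 genes below a limit 40.4% did. The class of Ikzf1 rests on its GENCODE start, and the RefSeq window nearer to the summit of its promoter OCR had a GC content of 81.3% with 52 CpG.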
